A study of Mus musculus with 170 samples.

Results

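The genes described here encode the proteins of the cytosolic ribosome, the particle that translates messenger RNA in the cytoplasm. They were chosen by name, as symbols that begin with Rpl or Rps and a digit plus the stalk genes Rplp0, Rplp1 and Rplp2, without the Rps6k kinases and without pseudogenes. The pattern matched 81 of the 21450 gene symbols, and 78 of them reached a mean of at least 1 CPM (counts scaled to a common library total) over all libraries. The 78 hold 46 genes of the large subunit or its close copies, 28 of the small subunit or its copies, the 3 stalk genes, and Rps19bp1, which is a nucleolar partner of Rps19 and no subunit. Rps16 (0.0515 CPM), Rpl10l (0.0186 CPM) and Rpl39l (no count) fell below the limit. The pattern does not reach some genes such as Rpsa, Fau and Rack1, whose products also sit on the ribosome; these stand in the list of translation factors used below.

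Female CD-1 mice, an outbred stock, were dosed into the lungs by aspiration from the back of the throat. The smoke groups received 50 µL of saline with smoke particulate matter at 2 mg/mL. The smoke condensates came from 5 fuels, each burned with flames or left smoldering, which gave the groups RedOakFlame, RedOakSmolder, PeatFlame, PeatSmolder, PineFlame, PineSmolder, PineNeedlesFlame, PineNeedlesSmolder, EucalyptusFlame and EucalyptusSmolder. Saline alone was the control, and bacterial lipopolysaccharide (LPS), an inflammatory agent with no dose in the labels, was the positive control. Separate animals gave lungs 4 h and 24 h after dosing, with 6 mice in each group and 4 in each LPS group, 140 lung libraries in all. Hearts were taken at 24 h from 6 mice each of Saline, RedOakFlame, RedOakSmolder, PeatFlame and PeatSmolder, the same 30 animals whose 24 h lungs were measured. The labels give neither an age nor a genetic alteration, and no group is a transgenic model. Each library is bulk RNA from a tissue, so fewer cells of a type and less RNA per cell cannot be told apart.

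A ribosome carries a single copy of almost every one of these proteins, except that the stalk holds several copies of Rplp1 and Rplp2 on Rplp0. The mRNAs of these genes often begin with a C followed by a run of pyrimidines (the 5′ terminal oligopyrimidine, or TOP, tract). Such mRNAs are switched together at the level of translation by growth signalling through mTOR. Heart and skeletal muscle also use Rpl3l, a muscle form of Rpl3.

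The start sites are shown because the TOP tract is the sequence feature this gene family is known for. Start-site sequences were taken from RefSeq (build GRCm38.p6), which gave 58 of the 78 genes, and a tract was counted as a C followed only by C or T that began within 10 bases of the annotated start on the gene's own strand. A tract of at least 8 bases was found in 22 of the 58 genes (37.9%), against 9.43% of 27025 genes with a start in the same table. The ETS core CCGGAAGT, searched on both strands of the 300-base window around the start, was found in 15.5% of the 58 and in 4.31% of all genes. The E-box CACGTG was found in 10.3% and 8.09%, and the letters TATAAA in 12.1% and 15.7%, and the YY1 core AAGATGG in 15.5% and 7.28%. None of these motifs holds another of them. Below are 40 bases around the start, 5′ to 3′ on the gene's strand, with the tract in capitals, for 5 genes with a tract and, for contrast, for 3 without a tract of 5 bases or more and for Rpl3l, whose tract is short. The starts are RefSeq's, so a tract may be missed where the annotated start is a few bases off.
Rpl15, chr14:18270967-18271006, minus strand: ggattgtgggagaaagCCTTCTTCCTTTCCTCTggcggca
Rpl13a, chr7:45128726-45128765, minus strand: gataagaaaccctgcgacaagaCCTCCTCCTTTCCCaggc
Rpl28, chr7:4792945-4792984, plus strand: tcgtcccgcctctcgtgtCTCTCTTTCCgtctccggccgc
Rps27, chr3:90213629-90213668, minus strand: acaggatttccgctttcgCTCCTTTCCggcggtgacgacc
Rps9, chr7:3704021-3704060, plus strand: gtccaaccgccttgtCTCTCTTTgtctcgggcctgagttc
Rpl9, chr5:65391412-65391451, minus strand: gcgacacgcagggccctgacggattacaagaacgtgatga
Rplp0, chr5:115559447-115559486, plus strand: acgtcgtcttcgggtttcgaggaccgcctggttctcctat
Rps15, chr10:80292411-80292450, plus strand: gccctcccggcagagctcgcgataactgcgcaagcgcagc
Rpl3l, chr17:24727806-24727845, plus strand: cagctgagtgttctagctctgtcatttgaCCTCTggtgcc

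Counts in this table were taken as reads of ligated probe pairs, because its rows are numbered by probe. The labels name the chemistry in more than 1 way. On this reading a level is a property of the probe as well as of the mRNA. The order of counts between genes is then not an order of mRNA amounts. In the mean over all 170 libraries Rps19 (2977 CPM), Rps9 (2181 CPM) and Rps23 (1323 CPM) had the most counts, and Rps26 (2.01 CPM), Rpl7l1 (3.38 CPM) and Rpl41 (4.82 CPM) the fewest. Without the 6 lungs of few detected symbols described below, the means of Rps19, Rps9 and Rps23 were 2166, 2170 and 1243 CPM, so the order of the first pair rests on those lungs. In hearts they were 545, 1335 and 443 CPM. Rps26 had no count in 21 lung libraries and Rpl7l1 in 10. Of the 78 genes 60 had 1 probe, 13 had 2, 3 had 3 and 2 had 4. Together the 78 genes took 1.94% to 6.91% of a lung library (median 2.80%) and 2.46% to 4.23% of a heart library (median 2.94%). Libraries held 4426180 to 8046020 counts. The number of symbols with at least 1 count ran from 9886 to 15644 in lungs (median 15145) and from 13187 to 14329 in hearts (median 13633). Of the lung libraries 6, all at 24 h, stood apart with fewer than 13000 detected symbols: RedOakFlame replicate 6, EucalyptusFlame replicate 5, PineSmolder replicate 4, EucalyptusSmolder replicate 5, PeatFlame replicate 3 and PineFlame replicate 6. Without these 6 libraries the members called in lung numbered 2 for the single smokes at 4 h, and 5 and 6 for LPS at 4 h and 24 h. They numbered 9 and 1 for flaming against smoldering at 4 h and 24 h, 4 for 24 h against 4 h, and 13 among the 4 h groups. Without these libraries, the counts for the single smokes at 24 h and among the 24 h groups, which hold them, are not given here. The 4 h groups and the LPS groups hold none of them, but all lungs share 1 fit. The counts with these libraries are given with each comparison. The shares of all genes called without them are not given here, so these counts cannot be set against a background. Heart libraries carried heart markers at 3.49% to 5.07% of counts and lung markers at no more than 0.0199%, and lung libraries carried heart markers at no more than 0.133%, while lung libraries carried lung markers at 0.952% to 8.74%.

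In hearts the ribosomal protein genes were lower after red oak flame smoke. Of the 78 genes 59 fell against saline and none rose, where 6.69% of the 11179 genes tested fell (edgeR quasi-likelihood test, Benjamini-Hochberg adjusted p under 0.05, as for every call below). The median log2 change of the 78 was -0.57, against 0.03 for all genes tested. Both subunits took part: 35 of 46 large-subunit genes fell with a median of -0.57, and 21 of 28 small-subunit genes with a median of -0.66. Of the stalk genes Rplp0 and Rplp2 fell, and Rplp1 did not pass (log2 change -0.43, adjusted p = 0.119).

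Rpl9, a large-subunit protein at the base of the stalk, had 269, 433 and 663 CPM (lowest, median, highest) in the 6 saline hearts and 182, 220.2 and 241 CPM in the 6 RedOakFlame hearts, which did not overlap. Its log2 change was -1.09 ± 0.20 (SE, n = 6 and 6; edgeR adjusted p = 0.00153). Rps3, which lines the mRNA entry channel of the small subunit, had 178, 284 and 381 CPM under saline and 137.4, 164 and 185 CPM after red oak flame, with 5 of 6 smoke hearts below every saline heart. Its log2 change was -0.79 ± 0.16 (edgeR adjusted p = 0.00242). Rplp0, the scaffold of the stalk, had 608, 855 and 1171 CPM under saline and 461, 528 and 648 CPM after red oak flame (-0.75 ± 0.15, edgeR adjusted p = 0.0029), and the highest smoke heart lay inside the saline range. Rps15, a protein of the head of the small subunit, had 179, 251 and 353 CPM under saline and 103.8, 147 and 160.0 CPM after red oak flame, without overlap (-0.83 ± 0.17, edgeR adjusted p = 0.00308). For each of these genes the saline hearts spread widely and the smoke hearts sat together at the low end. The count of 59 was 31 without saline replicate 1, 39 without saline replicate 2 and 38 without RedOakFlame replicate 2.

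Groups did not overlap for 8 of the 78 genes, all lower after red oak flame, where 1.74% of all genes tested were lower without overlap. For 27 at least 5 of the 6 RedOakFlame hearts lay below every saline heart, where 5.29% of all genes did. The 8 without overlap included Rpl9, Rpl32, Rpl36al, Rps13, Rps14, Rps15 and Rps27l, which are listed here after their values were seen. Among them Rps14, a platform protein of the small subunit, showed the lowest log2 change of all 78 (-1.17 ± 0.26, edgeR adjusted p = 0.00492) at low levels, with 5.56 to 7.96 CPM after red oak flame and 9.23 to 20.4 CPM under saline. The genes that did not pass included the muscle form Rpl3l (-0.22, adjusted p = 0.225) and its relative Rpl3 (-0.17, adjusted p = 0.613), while the near copies Rpl36al (-0.74), Rps27l (-0.74) and Rpl22l1 (-0.74) fell. Rps26 had the only log2 change above 0 (0.04, adjusted p = 0.938). Every one of the 16 genes with several tested probes had all its probes on the same side of 0 in red oak flame hearts. A TOP tract of at least 8 bases was found in 18 of the 44 genes that fell and had a start sequence, and in 4 of the 14 others; this is a description and was not tested.

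**Figure D1:**
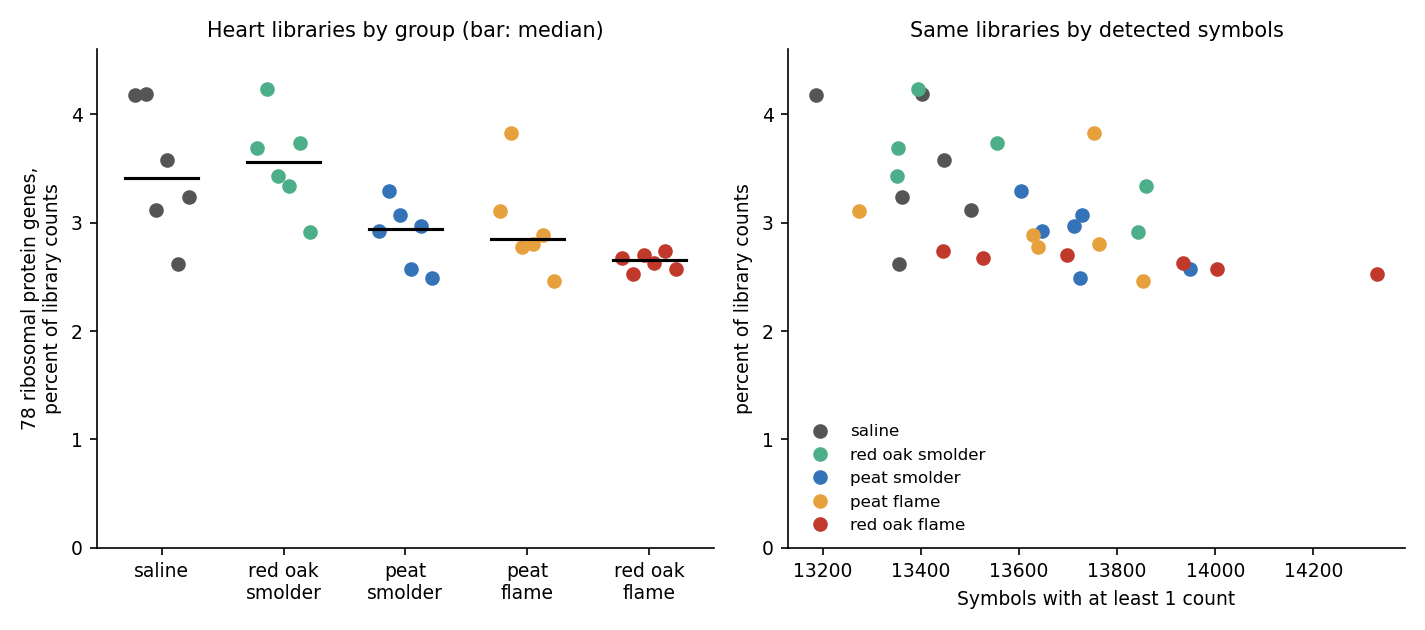
Share of library counts taken by the 78 ribosomal protein genes in the 30 hearts (y axis, percent), by group with the median as a bar (left) and against the number of symbols with at least 1 count (right); each point is 1 heart. The 6 RedOakFlame hearts sit between 2.53% and 2.74%, and the 6 saline hearts spread from 2.62% to 4.18%.

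Fewer of the genes were called in peat smolder hearts; the difference between the smokes was not tested. Of the 78 genes 13 fell and none rose, where 1.91% of genes tested fell, and the median log2 change was -0.41 against 0.00 for all genes. Rpl30, a large-subunit protein, had 434, 499.7 and 583 CPM in saline hearts and 287, 352 and 400.2 CPM in PeatSmolder hearts, without overlap (-0.53 ± 0.10, edgeR adjusted p = 0.00403). It was 1 of 2 members lower without overlap, where 0.921% of all genes tested were. After red oak flame Rpl30 had 378, 407 and 500.5 CPM and did not pass. Rpl9 had 187, 269 and 337 CPM after peat smolder (-0.82 ± 0.19, edgeR adjusted p = 0.0168), with 3 of 6 hearts below every saline heart. Rplp0 (-0.62 ± 0.15, adjusted p = 0.0199) and Rps9 (-0.48 ± 0.12, adjusted p = 0.0276) were the next by p, and Rps9 had 1001 to 1316 CPM against 1170 to 1984 CPM in saline. The count of 13 moved with single hearts, from 1 without saline replicate 1 or PeatSmolder replicate 4 to 30 without saline replicate 5. It was 2, 3, 3, 4, 4 and 22 without saline replicates 2 and 4 and PeatSmolder replicates 1, 3, 6 and 2. The calls in both smokes share the saline hearts, and 10 genes were called in each: 10 of the 13 in peat smolder and 10 of the 59 in red oak flame.

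Peat flame and red oak smolder hearts gave no calls among the 78. After peat flame edgeR called none (0.0447% of all genes were called), with 36 at an unadjusted p under 0.05 (11.7% of all genes) and 1, Rpl30, by DESeq2; the median log2 change was -0.32 and 76 of the 78 values were below 0. Rpl30 had the smallest p (-0.35 ± 0.10, edgeR adjusted p = 0.199), followed by Rpl15 (-0.45 ± 0.16, adjusted p = 0.320). After red oak smolder edgeR and DESeq2 called none (0% of all genes), none had an unadjusted p under 0.05 (6.26% of all genes did), and the median was -0.00 with 39 values on each side of 0. Rpl24 (-0.60 ± 0.30, edgeR adjusted p = 0.807) and Rps26 (0.47 ± 0.26, adjusted p = 0.826) had the smallest p. Over the 5 heart groups 45 of the 78 differed in a single F test, where 6.85% of all genes did, led by Rpl9 (adjusted p = 0.00158), Rpl39 (0.00381), Rps3 (0.00434), Rpl36al (0.00633), Rps15 and Rplp0 (both 0.00662). The 12 flaming hearts against the 12 smoldering hearts gave no call by edgeR or DESeq2 (0.0358% of all genes by edgeR), 47 of the 78 at an unadjusted p under 0.05 (17.03% of all genes), and a median log2 change of -0.25.

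**Figure D2:**
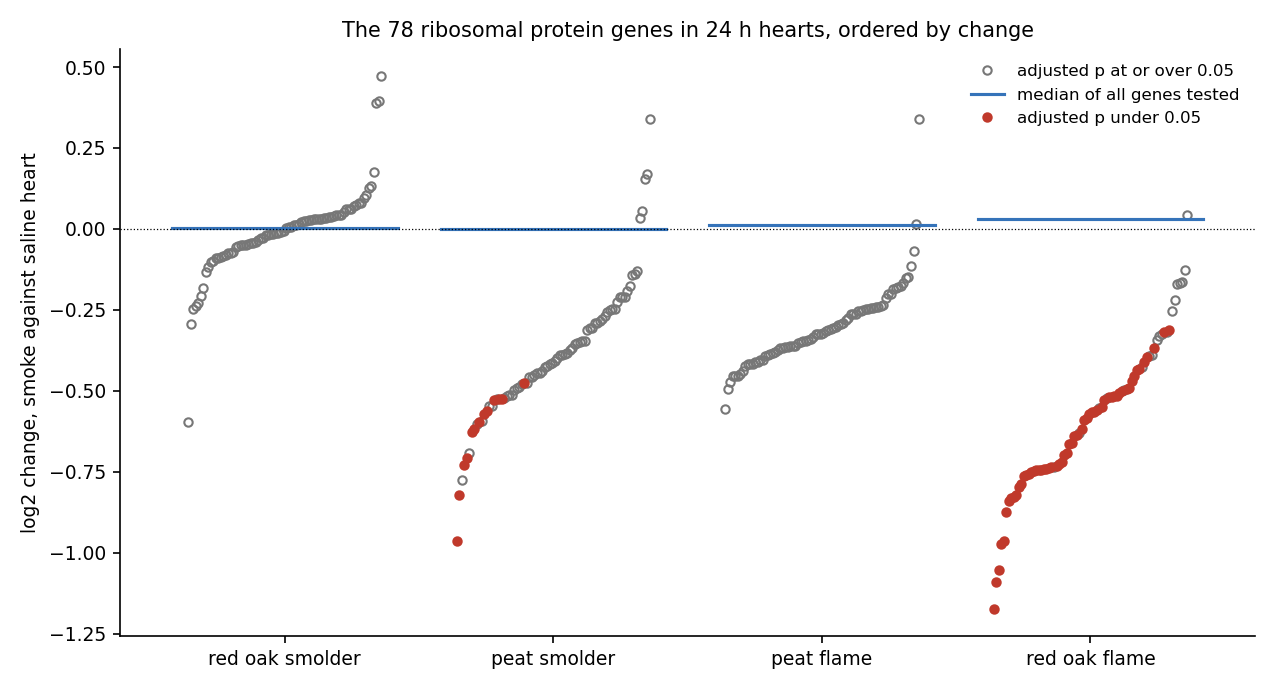
Log2 change of each of the 78 genes against saline hearts for the 4 smokes given to these animals (y axis), ordered within a smoke; filled points passed an adjusted p of 0.05 and the line is the median of all genes tested. Red oak flame has 59 filled points, peat smolder 13, and red oak smolder and peat flame none.

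As a share of all counts, the 78 genes took 2.62%, 3.41% and 4.18% (lowest, median, highest) of the saline heart libraries and 2.91%, 3.56% and 4.23% after red oak smolder. They took 2.49%, 2.94% and 3.29% after peat smolder, 2.46%, 2.85% and 3.82% after peat flame, and 2.53%, 2.65% and 2.74% after red oak flame. A single saline heart, replicate 5, reached down into the red oak flame range, and all 6 RedOakFlame hearts lay below the other 5.

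Several other measures moved with these falls in hearts. The number of detected symbols was 13187 to 13503 in saline hearts, 13446 to 14329 in RedOakFlame hearts and 13604 to 13949 in PeatSmolder hearts. Over the 30 hearts the share of the 78 genes and the number of detected symbols had Pearson's r of -0.58 and Spearman's rho of -0.57 (without the 2 hearts farthest from the median r was -0.50), and after group means were removed r was -0.36 and rho -0.44. With the number of detected symbols as a covariate no member was called in any comparison of heart groups, the calls over all genes in red oak flame went from 1344 to 3, and the median log2 change of the 78 was -0.33 in red oak flame and -0.18 in peat smolder. In the fit with groups and detected symbols together, 32 of the 78 fell with more detected symbols and none rose, where 7.77% of all genes fell. Among those with the smallest p were Rplp2 (-0.73 ± 0.17 per 1000 symbols, edgeR adjusted p = 0.00589), Rps19bp1 (-0.80 ± 0.19) and Rpl11, which also binds Mdm2 (-1.24 ± 0.32). Heart animals were numbered in blocks by group and all hearts were on plate 2, so group and handling order cannot be told apart.

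Gene lists around the ribosome gave the following in red oak flame hearts, where 6.69% of all genes tested fell. Of 19 translation factors and TOP-type genes 11 fell and none rose (median -0.36), among them Tpt1 (-0.69) and Eif3h (-0.56). Of 74 genes for proteins of the mitochondrial ribosome 38 fell and none rose (median -0.49), led by Mrps24 (-0.86), and of 8 genes read from mitochondrial DNA 6 fell, led by mt-Nd3 (-1.08). Of 30 ribosome biogenesis genes 3 fell, Nhp2 (-0.57), Nop10 (-0.59) and Wdr12 (-0.39), with a median of 0.00. Of 15 mTOR and growth genes Eif4e fell (-0.44) and Rictor rose (0.48), and none of 5 genes of the p53 response to ribosome faults passed. In peat smolder 1.91% of all genes tested fell. Among the lists 6 of 19 translation factors, 10 of 74 mitochondrial ribosome genes, 2 of 8 mitochondrial genes and none of the 30 biogenesis genes fell. Cdkn1a of the p53 list rose in this smoke (1.15). None of 7 erythroid, 4 neutrophil or 4 lymphocyte markers tested passed in either smoke. The summed erythroid markers took 0.0161% to 0.0660% of saline hearts and 0.0194% to 0.0763% of RedOakFlame hearts, the neutrophil markers 0.00417% to 0.0113% and 0.00721% to 0.00916%, and the macrophage markers 0.0811% to 0.195% and 0.0672% to 0.127%, with Cd68 alone called higher (0.73). Of 9 heart markers Myl2 (-0.66) and Myl3 (-0.61) fell in red oak flame and Myl2 (-0.65) in peat smolder, and the list took 4.39% to 5.07% of saline and 3.49% to 4.65% of RedOakFlame hearts. The part of these shifts in the ribosomal protein values was not tested.

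Within groups the hearts moved as a block. After group means were removed, each gene was correlated with the mean of the other 77 over the 30 hearts, which share size factors and total counts. Pearson's r ran from 0.04 to 0.99 with a median of 0.88, and 66 genes were above 0.5. Rpl27 (0.99), Rpl22 (0.98) and Rpl34 (0.98) followed the others most closely. Rps26 (0.04), Rpl24 (0.05) and Rpl3l (0.10) were among those that followed them least. The mean r between pairs of the 78 was 0.63 in hearts, 0.34 in 4 h lungs and 0.27 in 24 h lungs. Between pairs of all genes it was 0.00, 0.003 and 0.05. In such a mean positive and negative values offset each other, so it is not the level of other groups of related genes.

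In lungs few ribosomal protein genes passed against saline. At 4 h none of the 780 tests (78 genes, 10 smokes) passed by edgeR or by DESeq2, where 0.0456% of all tests did, and 43 had an unadjusted p under 0.05, as did 5.05% of all tests. The median log2 change of the 78 ran from -0.26 to 0.15 over the 10 smokes. At 24 h 3 of 780 passed, where 0.187% of all tests did, and medians ran from -0.15 to 0.40. At 4 h the lowest adjusted p belonged to Rpl22l1, a near copy of Rpl22, after eucalyptus flame (-0.75 ± 0.22, edgeR adjusted p = 0.216), and its value after eucalyptus smolder was -0.78 ± 0.22 (adjusted p = 0.602). The mean of all 10 smokes gave no call by edgeR or DESeq2 at 4 h (0% of all genes; 4 of the 78, and 5.28% of all genes, at an unadjusted p under 0.05) or at 24 h (0.00692% of all genes; 2 of the 78 and 3.56% of all genes at an unadjusted p under 0.05). Rpl22l1 (-0.42 ± 0.16, adjusted p = 0.679) at 4 h and Rps27 (0.39 ± 0.18, adjusted p = 1) at 24 h had the smallest p.

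The 3 calls at 24 h were all in red oak flame, Rps19, Rpl3 and Rpl36a, where 1.75% of all genes were called, and they rested on 1 library. Rps19, a small-subunit protein whose human gene is mutated in Diamond-Blackfan anaemia, had 834, 2748 and 11499 CPM (scaled) in 6 saline lungs and 1403, 2143 and 237900 CPM in 6 RedOakFlame lungs. Replicate 6, the library with 9886 detected symbols, was the single smoke lung above the saline range, and in its unscaled counts Rps19 stood at 59330 CPM. The log2 change was 3.40 ± 0.76 with that library (edgeR adjusted p = 0.00456) and -0.36 without it (adjusted p = 0.865). Rpl3 (1.47 ± 0.33) and Rpl36a (1.34 ± 0.32) likewise had 1 of 6 smoke lungs above saline, the same one. No member was called against saline at 24 h without that library. The smoke effects in heart and lung of the same animals were compared directly for the 4 smokes. The medians of heart minus lung ran from -0.70 to -0.31, and no member passed by edgeR. An unadjusted p under 0.05 was found in 39 of 312 member tests, against 6.49% of all tests. By smoke these were 23 in red oak flame (11.4% of all genes), 8 in peat smolder (3.86%), 7 in peat flame (5.42%) and 1 in red oak smolder (5.30%).

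LPS gave 2 calls in the set, both at 24 h, while 8.98% of all genes were called at 4 h and 12.1% at 24 h. At 4 h edgeR and DESeq2 called no member, and 5 had an unadjusted p under 0.05, as did 19.98% of all genes. Rpl24 (1.53 ± 0.60, edgeR adjusted p = 0.104) and Rplp2 (0.43 ± 0.19, adjusted p = 0.144) had the smallest p, and the 4 LPS lungs held 237 to 409 CPM of Rplp2 against 206 to 237 CPM in saline, without overlap. At 24 h Rpl36al rose. It had 670.2, 889 and 1068 CPM (lowest, median, highest) in 4 LPS lungs and 450.3, 556 and 713 CPM in 6 saline lungs (0.63 ± 0.21, edgeR adjusted p = 0.0358), with 3 of 4 LPS lungs above the saline range. Without LPS replicate 2 or 3 edgeR called no member. Rpl36al also missed the threshold without LPS replicate 1, without saline replicate 1, 2, 4 or 5, and by DESeq2 (adjusted p = 0.124). Neutrophil markers rose in 8 of 10 genes at each time and took 0.0817% to 0.201% of 4 h LPS lungs against 0.0179% to 0.0588% in saline, and 0.115% to 0.169% against 0.0147% to 0.0317% at 24 h; their part in these values was not tested. The difference between the LPS effects at 24 h and 4 h passed for no member (edgeR; 2 of the 78, and 8.36% of all genes, at an unadjusted p under 0.05).

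**Figure D3:**
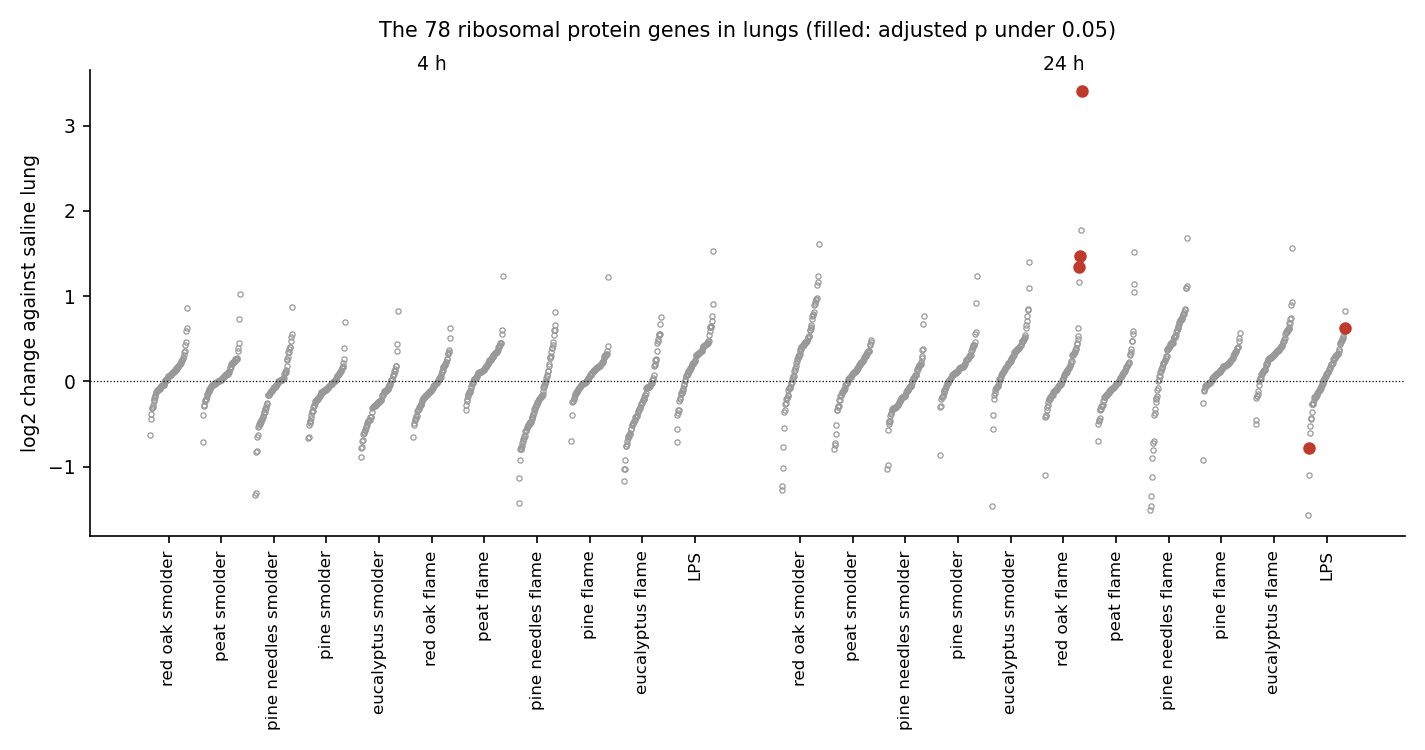
Log2 change of each of the 78 genes against saline lungs of the same time (y axis) for 10 smokes and LPS at 4 h and 24 h, ordered within a contrast; filled points passed an adjusted p of 0.05. The filled points include Rps19, Rpl3 and Rpl36a in red oak flame and Rpl36al under LPS, all at 24 h.

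Flaming and smoldering smokes differed for 4 members in 4 h lungs, all higher with flames, where 1.72% of all genes were higher. Rpl37, a zinc-binding large-subunit protein, had 106.9, 130.6 and 304 CPM (lowest, median, highest) in 30 flaming lungs and 79.2, 104.9 and 137.4 CPM in 30 smoldering lungs, with 11 flaming lungs above every smoldering lung (0.36 ± 0.08, edgeR adjusted p = 0.00319). Rpl15 had 45.9, 67.5 and 159 CPM against 32.6, 52.3 and 66.98 CPM, with 15 flaming lungs above the smoldering range (0.49 ± 0.11, adjusted p = 0.0063). Rpl8 (0.30 ± 0.07, adjusted p = 0.00574) and Rps9 (0.31 ± 0.09, adjusted p = 0.0469) were the other two, and both missed the threshold in edgeR with DESeq2's size factors (adjusted p = 0.0618 and 0.0715). The groups overlapped for all 4, and the median of the 78 was -0.02. Of the 4 h lungs only 5 were on plate 2, all of them PineNeedlesSmolder. The log2 changes come from a fit with a plate term, but the CPM ranges are not adjusted for plate. At 24 h no member passed by edgeR or DESeq2 (0.111% of all genes by edgeR; 3 of the 78, and 6.27% of all genes, at an unadjusted p under 0.05), with Rpl3 first (0.49 ± 0.15, adjusted p = 0.328). The flaming effect at 24 h minus that at 4 h passed for no member by edgeR, with 10 at an unadjusted p under 0.05, as had 11.2% of all genes.

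Between 24 h and 4 h, over the saline and smoke groups, 2 members were higher at 24 h and none lower, where 2.86% of all genes were higher. Among them Rps29 had 92.1, 170 and 328 CPM (lowest, median, highest) in 66 lungs at 24 h and 85.2, 144 and 234 CPM in 66 lungs at 4 h (0.32 ± 0.10, edgeR adjusted p = 0.0365), with 6 of the 24 h lungs above every 4 h lung. The times lay mostly on different plates, DESeq2 called no member, and without a plate term 29 members were called. Over the 12 groups of 4 h lungs 3 members differed, where 6.08% of all genes did, among them Rps27 (edgeR adjusted p = 0.0167). Over the 12 groups of 24 h lungs 18 members differed, where 30.3% of all genes did. The smallest adjusted p (edgeR) belonged to Rps19 (1.35e-07), Rpl36a (0.000205), Rps27l (0.000784), Rpl3 (0.000996), Rps2 (0.00137) and Rpl41 (0.00191). These groups include the 6 lungs of few detected symbols, and Rps19, Rps27l and Rpl36a were higher in lungs with fewer detected symbols. The part of those lungs in these calls is not given here. Each time fitted alone gave 14 and 2 members. The shares of all genes called without a plate term and with each time alone are not given here.

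Lung levels of 73 of the 78 genes went with the number of detected symbols. In 140 lungs the fit of groups and detected symbols called 55 members that rose with more detected symbols, where 50.5% of all genes rose, and 18, Rps19 among them, that fell, where 31.3% of all genes fell. Per 1000 symbols the log2 level of Rpl37a rose by 0.89 ± 0.04, of Rpl10 by 0.68 ± 0.04 and of Rpl38 by 1.13 ± 0.07. That of Rps19 fell by 1.20 ± 0.04, of Rps27l by 0.73 ± 0.03, of Rps4x by 0.82 ± 0.04 and of Rpl36a by 0.48 ± 0.03. The share of Rps19 in the library had Pearson's r with detected symbols of -0.81 in 70 lungs at 4 h and -0.88 in 70 lungs at 24 h (rho -0.64 and -0.85), and -0.92 in the 64 lungs at 24 h with at least 13000 symbols. The other 77 genes together had r of 0.36 and 0.64 (rho 0.30 and 0.57), and 0.49 in those 64 lungs. On plate 1 and plate 2 at 24 h Rps19 had r of -0.89 (17 lungs) and -0.88 (53 lungs).

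**Figure D4:**
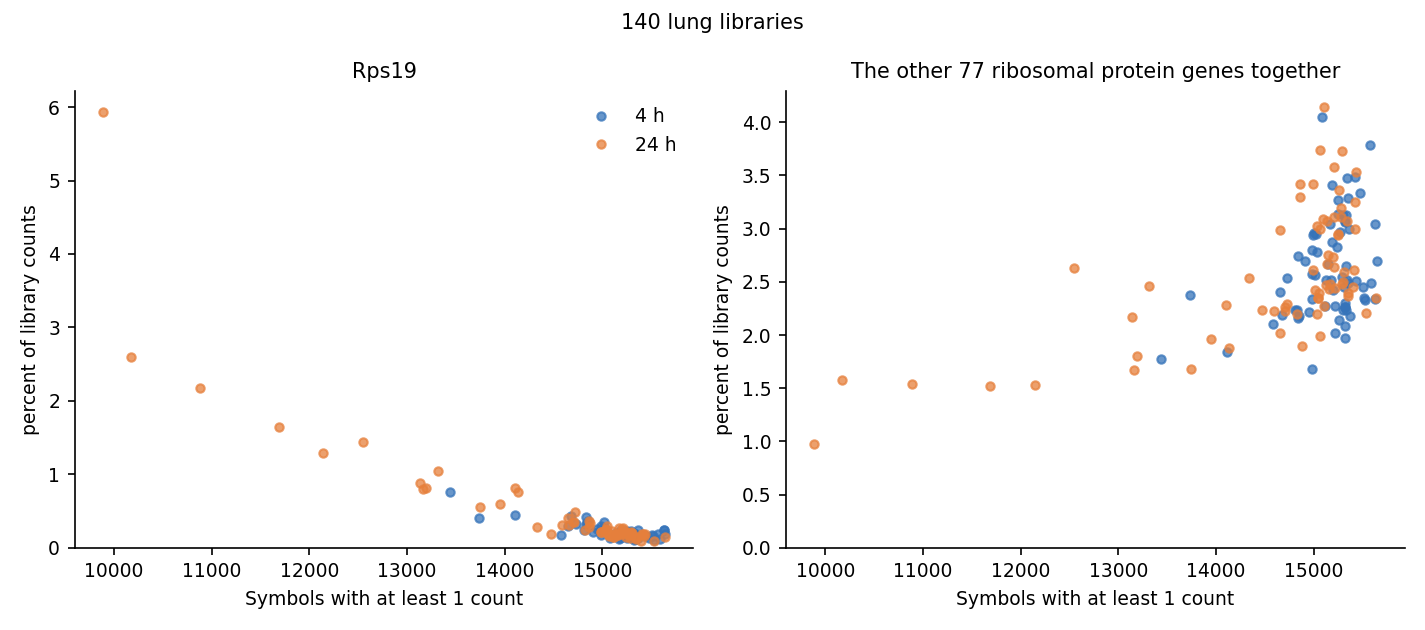
Share of library counts (y axis, percent) against the number of symbols with at least 1 count (x axis) in 140 lungs, for Rps19 (left) and for the other 77 genes together (right); each point is 1 lung, coloured by time. Rps19 rises to 5.93% in the lung with 9886 symbols, where the other 77 genes take 0.98%.

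The rise of Rps19 was carried by 1 of its 4 probes. In the RedOakFlame lung with 9886 detected symbols probe 82177 stood at 59329 CPM, and in the other 5 lungs with few symbols it stood at 12857 to 25888 CPM. Probe 67165 stood at 1.08 CPM in the first of these lungs and at 13.6 to 78.4 CPM in the other 5, and the remaining 2 Rps19 probes had no count in any library. Tested alone over the 140 lungs, probe 82177 fell by 1.28 on the log2 scale per 1000 symbols and probe 67165 rose by 0.72. Rps27l, a p53-responsive copy of Rps27, split the same way, with probe 31156 at -0.88 and probe 74163 at 1.44 per 1000 symbols. Rps9 split too, with probe 66643 at -0.34 and probe 64050 at 0.46. Of 17 genes with several tested probes 12 had all probes on the same side of 0 in this slope. In these 3 genes the slope of the sum had the sign of the probe with the most counts in lung. These probes were looked up after the values of the genes were seen.

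Between heart and lung of the same 30 mice 71 of the 78 genes were called, where 88.2% of all genes were. Of the 78 genes 62 were higher in heart, where 39.2% of all 13746 genes tested were, and 9 were lower, where 49% were. The median log2 difference, heart minus lung, was 1.34 for the 78 and -0.28 for all genes. These differences depend on the size factors (TMM) set between the tissues. As a share of unscaled counts the 78 genes took a median of 2.80% of the 140 lung libraries and 2.94% of the 30 heart libraries. Without Rps19 these medians were 2.49% and 2.89%. Large-subunit genes were higher in 39 of 46 cases, small-subunit genes in 19 of 28, and all 3 stalk genes were higher: Rplp0 by 1.25 ± 0.13, Rplp1 by 0.83 ± 0.14 and Rplp2 by 1.34 ± 0.10.

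Rpl3l, the muscle form of Rpl3, had 1066, 1524 and 1873 CPM (lowest, median, highest) in hearts and 0.107, 1.78 and 10.1 CPM in lungs, with no overlap (8.94 ± 0.32, n = 30 and 30, edgeR adjusted p = 2.54e-32). Rpl3 itself had 120.03, 230.4 and 379.8 CPM in hearts and 81.1, 112.7 and 1202 CPM in lungs and was higher in heart by 0.66 ± 0.18 (adjusted p = 0.000741), with overlap. Rps29 had 388, 543 and 823 CPM in hearts and 69.2, 116.9 and 243 CPM in lungs, without overlap (2.25 ± 0.10, adjusted p = 2.17e-27). Rpl28 (3.09 ± 0.18) had no overlap either. For 13 of the 78 genes heart and lung did not overlap, all higher in heart, where 16.3% of all genes were higher without overlap; the share of the 78 is close to that background.

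The near copies and their relatives are set side by side here, and the differences within a pair were not tested. Rpl36al was higher in heart by 1.21 ± 0.10 and Rpl36a was not called (-0.19 ± 0.16, adjusted p = 0.262). Rpl22l1 was higher by 0.30 ± 0.11 and Rpl22 by 1.36 ± 0.14. Rpl7l1, a ribosome biogenesis factor, was higher by 1.28 ± 0.22 and Rpl7 by 1.58 ± 0.19. Rps27 was higher by 0.47 ± 0.12, and Rps27l was not called as a sum (0.24 ± 0.21, adjusted p = 0.271), while its probe 31156 was lower by 1.34 and its probe 74163 higher by 2.99. Rpl10 (1.005 ± 0.15) and Rpl39 (1.36 ± 0.17) were higher, and their testis copies Rpl10l and Rpl39l were at or near 0 counts throughout. The members lower in heart included Rps14 (-1.78 ± 0.18), Rps23 (-1.44 ± 0.16), Rps19 (-2.76 ± 0.32), Rpl18 (-0.83 ± 0.10) and Rps3 (-0.96). Rps19 had 478 to 1135 CPM in hearts and 630.1 to 164963 CPM in lungs. These CPM were scaled within the fit of both tissues, so they differ from those of the same libraries given above. The log2 difference of Rps19 was -1.84 without the libraries of few detected symbols, which hold 2 of these 30 lungs. Rps2 and Rps4x were called lower in heart too, but their medians were not lower there: Rps2 had a median of 39.4 CPM in hearts and 33.2 CPM in lungs, and Rps4x 11.96 and 11.94 CPM. The highest lung held 1221 CPM of Rps2 and 218 CPM of Rps4x, and without the libraries of few symbols neither passed (edgeR adjusted p = 0.593 and 0.0773). Probes of 3 members were called in both directions, those of Rps27l above and of Rps19 and Rps9. For Rps19 probe 82177 was lower in heart by 4.41 and 67165 higher by 1.53. For Rps9, called lower as a sum (-0.27, adjusted p = 0.00693), probe 66643 was lower by 0.92 and probes 64050 and 77273 higher by 1.73 and 0.79.

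The other lists were higher in heart as well: 71 of 75 mitochondrial ribosome genes, 7 of 8 mitochondrial genes, 13 of 19 translation factors and 22 of 35 biogenesis genes. Of all genes tested 39.2% were higher. The mitochondrial ribosome, translation factor and biogenesis lists had median log2 differences of 2.70, 1.24 and 0.64. Lung and heart were processed on overlapping plates, the hearts on plate 2 alone, and a fit with a replicate block for each animal called 70 of the 78.

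**Figure D5:**
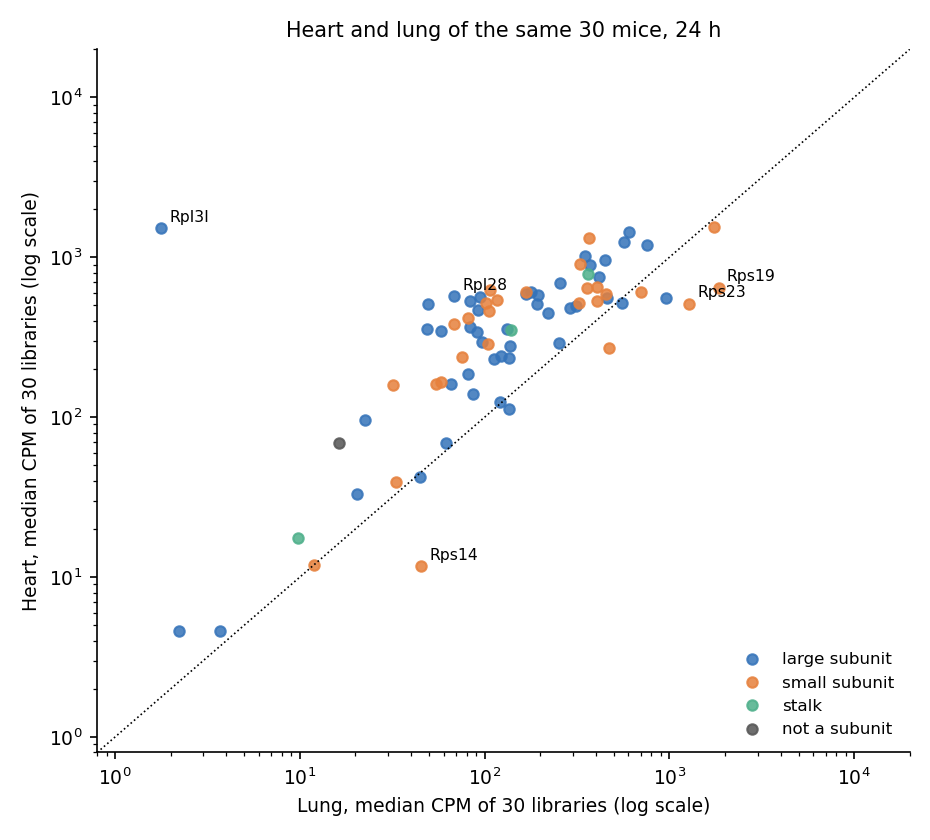
Median CPM of each of the 78 genes in 30 lungs (x axis, log scale) and 30 hearts (y axis, log scale) of the same mice at 24 h, coloured by subunit; the dotted line marks equal values. Most points lie above the line, Rpl3l farthest, and Rps19, Rps23 and Rps14 lie below it.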

How the data were processed

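Bulk RNA of 140 lung and 30 heart libraries was measured with probe-based sequencing; the labels name the chemistry in more than 1 way. The deposited table holds whole-number counts per probe, and Bowtie and DESeq2 are listed, with no version, per the submitters' processing notes; the genome build is not given in the sources used here. Each library is 1 mouse by its title. Probes were summed per symbol, so a symbol's value follows its most abundant probe.

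Counts were tested with edgeR 4.0.16 (TMM size factors, filterByExpr, quasi-likelihood F test; limma 3.58.1, R 4.3.3), with Benjamini-Hochberg adjustment over all genes of a comparison and calls at an adjusted p under 0.05. Lungs were fitted together with group and plate terms (14458 genes), hearts with group terms (11179 genes), and hearts with the 24 h lungs of the same animals (13746 genes). CPM are scaled by TMM factors, except for shares, probes and the mean CPM by which genes were chosen and ranked, which are unscaled. Log2 changes carry standard errors where a ± is printed. The factors were set anew in each fit, so the CPM of a library differ between fits. The highest lung value of Rps19 was 237900 CPM in the lung fit and 164963 CPM in the fit of hearts with lungs. Total counts of 4426180 to 8046020 set the depth, and the scaling of the 6 lungs with few detected symbols rested on TMM factors of 0.250 to 0.666. The scripts were tested on simulated data.

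Members and lists were chosen with earlier results of these data known. The text names, per comparison, up to 4 called members in each direction by p (6 for tests across groups), or the 2 with the smallest p where none was called, plus stalk genes, close copies and the members with the most and fewest counts; a few further members were named after their values were seen, and a few eligible members are not reported here. The alternatives tried were DESeq2 1.42.0, other size factors, no filter, single probes, no plate term, each time alone, libraries left out, detected symbols as a covariate, and a block by animal. Heart and lung of an animal are paired by title; deviations from the group means correlated between them with r of -0.22 to 0.26 (median 0.0989, 15 of 30 pairs over 0.1).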

Additional observations from a re-analysis of the deposited data

Results flagged for a closer look

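In 26 cases a single library lay far from the other libraries of its group, over 29 groups and 4 measures (the number of detected symbols and 3 shares of counts); chance marks about 1 in 20 groups. Detected symbols were low in 4 h lungs of Saline replicate 1 (14108) and EucalyptusFlame replicate 3 (13734). They were low in 24 h lungs of RedOakSmolder replicate 5 (14827), PeatSmolder replicate 1 (14710), PineSmolder replicate 4 (10886), Saline replicate 2 (13196), RedOakFlame replicate 6 (9886), PineFlame replicate 6 (12545) and EucalyptusFlame replicate 5 (10172). They were high in 4 h RedOakFlame lung replicate 2 (15644) and PeatSmolder heart replicate 4 (13949).

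The share of the 78 genes was low in 4 h Saline lung replicate 1 (2.29%, or 1.84% without Rps19) and high in 4 h PineNeedlesFlame replicate 1 (3.29%) and 24 h RedOakFlame replicate 6 (6.91%). Without Rps19, 24 h PineFlame replicate 5 stood apart at 3.36%. The share of Rps19 alone was high in 4 h lungs of PeatSmolder replicate 2 (0.333%), EucalyptusSmolder replicate 1 (0.362%) and EucalyptusFlame replicate 3 (0.409%). At 24 h it was high in lungs of PineNeedlesSmolder replicate 2 (0.81%), PineSmolder replicate 4 (2.18%), Saline replicate 2 (0.816%), RedOakFlame replicate 6 (5.93%), PineFlame replicate 6 (1.44%) and EucalyptusFlame replicate 5 (2.59%), and in hearts in PeatFlame replicate 2 (0.0709%). Of these, 5 lungs were marked both for few detected symbols and for a high Rps19 share at 24 h.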

How the results depend on the processing

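Counts of called members moved as follows, with edgeR unless named. The shares of all genes called under these settings are not given here, so a count that moved cannot be set against its background. With detected symbols as a covariate they were 0 in red oak flame hearts, peat smolder hearts, the 4 heart smokes together (72 otherwise), among heart groups and the 24 h smokes, 19 among 4 h groups, 12 for the 4 h smokes, 1 for their mean, 3 and 8 for LPS at 4 h and 24 h, 9 for flaming at 4 h and 5 for 24 h against 4 h. DESeq2 gave 20 in peat smolder hearts, 1 in peat flame hearts, 6 among 4 h groups, 8 for the 24 h smokes and 0 for 24 h against 4 h. DESeq2's size factors gave 5 for the 24 h smokes, 2 for flaming at 4 h and 0 for 24 h against 4 h. Library totals alone gave 9 for the heart slope, 1 and 9 among 4 h and 24 h groups, 1 for the 24 h smokes, 1 for LPS at 24 h and 0 for 24 h against 4 h. Without a plate term they were 5 among 4 h groups and 29 for 24 h against 4 h. With no filter they were 1 for LPS at 24 h and 1 for 24 h against 4 h, and single probes gave 1 for LPS at 4 h. Each time alone gave 14 and 2 among 4 h and 24 h groups, 1 and 0 for the smokes, 4 and 1 for LPS, and 8 for flaming at 4 h. Without the 6 libraries of few symbols they were 13 among 4 h groups, 2 for the 4 h smokes, 5 and 6 for LPS, 9 and 1 for flaming, and 4 for 24 h against 4 h. Under that setting the counts for the 24 h smokes and among the 24 h groups are not given here.

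Leaving out 1 library at a time gave 31 to 66 in red oak flame hearts, 1 to 30 in peat smolder, 0 to 0 in peat flame and red oak smolder, 32 to 96 over the 4 smokes, 31 to 57 among heart groups, and 0 to 0 for flaming in hearts. In lungs it gave 0 to 1 and 3 to 4 for the smokes at 4 h and 24 h, 0 to 0 for their means, and 0 to 1 and 0 to 3 for LPS.

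Leaving out 1 saline library at a time, the RedOakFlame 24 h lung value of Rps19 ran from 3.22 to 4.10 and that of Rpl36a from 1.24 to 1.54. The direction reversed for Rps19 in PineSmolder lungs at 24 h without the libraries of few symbols (-0.14). In RedOakFlame lungs at 24 h it reversed without them for Rps19 (-0.42), Rpl36a (-0.10) and Rpl3 (-0.00496), and without replicate 6 alone, left out after the data were seen, for Rps19 (-0.36, 0 members then called) and Rpl36a (-0.076). With the replicate block by animal, heart against lung gave 70 called members, against 71 without it; no other comparison was fitted with a block. For hearts the spread of the saline libraries limits what 6 against 6 can show; Rps26 and Rpl7l1, with few counts, are the least precise.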

Other observations

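In 24 h lungs 16 of the 78 genes ran against the mean of the other 77 within groups, and in 4 h lungs 9 did, whereas none did in hearts. Rps19 (Pearson's r = -0.84), Rps4x (-0.84), Rps2 (-0.83) and Rps27l (-0.70) were lowest at 24 h over 70 lungs, which share plates and size factors. In the 64 lungs of that time with at least 13000 detected symbols 16 genes were again below 0, and the lowest r was -0.68.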
